A study of Mus musculus with 6 samples.

Results

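Immediate early genes are transcribed within minutes of a growth factor, stretch or stress signal, without new protein synthesis. The set described here held 10 genes: the AP-1 subunit genes Fos, Fosb, Jun, Junb and Jund, the zinc finger factor genes Egr1 and Egr3, and the response genes Ier2, Ier3 and Zfp36. They were chosen by name, and every probe of the array that carried one of these names was read. That gave 14 probes for 10 of the 19505 named genes on the array. Of these, 9 genes carried a probe under the name used here, and Jund was matched by its RefSeq accession because the array calls it Jund1.

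RNA came from whole mouse embryos at embryonic day 8.5, and 250 ng of each sample was labelled with Cy3 and hybridised to a 1-colour Agilent array. Brg1d/d embryos were conditional knockouts of Brg1, and Brg1fl/fl embryos, which carry the floxed allele, were the wild-type control. Tamoxifen was given to the mother by intraperitoneal injection, and the labels list this treatment for all 6 samples, controls included. Brg1, gene symbol Smarca4, is an ATPase of the SWI/SNF complexes, which move nucleosomes. There were 3 samples of each genotype, which the series calls biological replicates. The sources used here give neither the driver of the Cre recombinase nor the day of injection, and they do not say if embryos were pooled.

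AP-1 is a dimer of a Jun protein with a Fos or a second Jun protein, joined through a leucine zipper, and it binds the sequence TGANTCA. Transcription of Fos and Egr1 is switched on through serum response factor (SRF) with its ternary complex partners at a CArG box, and through CREB at a cyclic AMP response element, after ERK, JNK or p38 kinases are activated. Their messages decay quickly, and proteins such as Zfp36 bind AU-rich elements in messages and speed their decay. In the embryo these genes respond to FGF signalling among other inputs.

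Levels below are log2 processed signal minus the 75th percentile of the same array, so 0 is the signal of a probe at that percentile. Probes differ in how strongly they bind, so levels were compared between arrays and not between genes. A probe was tested where 1 genotype or both had it flagged well above background in each of the 3 replicates. A difference is Brg1d/d minus Brg1fl/fl, and it was called at a limma adjusted p under 0.05 over all 27840 tested probes. A gene with several probes was counted through its brightest one, which gave 15023 genes. In whole embryos, fewer cells that express a gene and less RNA per cell cannot be told apart.

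The targeted gene was lower on every Brg1d/d array: its brightest probe read 2.05 ± 0.58 there against 4.74 ± 0.47 in the controls (SD, n = 3 each), so that it fell by 2.69 on the log2 scale (limma adjusted p = 0.0114). Arrays were scanned on 3 days, with the 3 controls and Brg1d/d 2 on 1 of them and Brg1d/d 1 and Brg1d/d 3 on a day each. The brightest spike-in control read 6905 to 12934 units on those last arrays and 208550 to 241121 units on the other 4. The same-day value, which is Brg1d/d 2 minus the mean of the controls, is therefore given for each tested probe of the set, and for other called genes where it differs by over 1.5 times. The 3 controls shared 1 slide and each Brg1d/d array had its own, so slide and genotype cannot be told apart. All 12 markers of the embryo proper were tested and 5 of them fell. Of 8 heart markers 7 fell, and their summed signal was 12.1 to 17.7 times the 75th percentile in Brg1d/d against 139 to 201 times in controls. Of 6 tested trophoblast markers 4 rose, Elf5, Eomes, Tfap2c and Ascl2, by 2.36 to 3.23. The summed signal of the 6 was 18.9 to 28.8 against 11.9 to 19.9 times that percentile. Cdx2, which was not called (0.32, limma adjusted p = 0.421), made up most of that sum on every array. None of 5 tested leukocyte markers was called, with sums of 0.912 to 1.17 against 0.461 to 1.62, and Ptprc, Itgam and Adgre1 did not meet the background filter. Endothelial markers fell in 3 of 7 cases, with sums of 5.93 to 7.05 against 12.3 to 14.0. Of 5 decidual markers 3 fell and 1 rose, with sums of 0.903 to 1.16 against 3.08 to 10.9. Those that fell were Lum, Dcn and Des, and Lum made up most of each control sum. The 1 that rose was Prl8a2, by 4.47. Its probe met the background filter only through Brg1d/d, the genotype where it is high, with 1 of 3 controls well above background. Prl8a2 is counted as a rise, but a call that passed the filter in this way gives no support for one. No decidual marker was called higher without control 1, without control 2 or without any single Brg1d/d array. None of 8 primitive red cell or 8 yolk sac markers was called, with sums of 65.0 to 78.7 against 70.5 to 282 and of 300.0 to 353 against 89.0 to 400.0. Control 1 stood apart from the other two controls there: its red cell sum was 70.5 against 254 and 282, its yolk sac sum 89.0 against 384 and 400.0, and it was the lowest control for all 8 markers of each list. Control 1 also had a decidual sum of 3.08 against 10.9 and 6.95, and a leukocyte sum of 0.461 against 1.34 and 1.62. Its sums for the embryo proper, heart and trophoblast lists were the highest of the controls. Without control 1, chosen as a check after the data were seen, 6 of the 8 red cell markers fell (limma adjusted p under 0.05). So did 2 of the 8 yolk sac markers and 1 of the 5 leukocyte markers. With each of the 6 arrays left out in turn, called markers ranged from 1 to 4 of 6 for trophoblast and from 1 to 6 of 12 for the embryo proper, and were 6 or 7 of 8 for heart. The part of these tissues in the results on immediate early genes was not tested.

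Fos, the founding AP-1 partner of Jun, was the 1 gene of the set that was called. It was higher in Brg1d/d embryos by 1.72 ± 0.16 on the log2 scale (SE, n = 3 and 3), which is 3.29-fold. Of the other 8 tested genes none was called, and 7 of them had differences of 0.10 to 0.70. A missed threshold does not show that these genes were the same in both genotypes. Egr3 did not meet the background filter. The single call among 9 tested genes stands beside a background of 10.6% of all tested genes called in either direction, and 5.26% called higher. The median difference of the 9 genes was 0.29, against 0.07 over all tested genes, and 8 of 9 lay above 0 where 55.0% of all tested genes did. Without control 3 the median of the 9 genes was 0.11, and without control 1, the array low in yolk sac and red cell markers, it was 0.32. The same-day median of the set was 0.36, against 0.0039 over all genes.

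**Figure D1:**
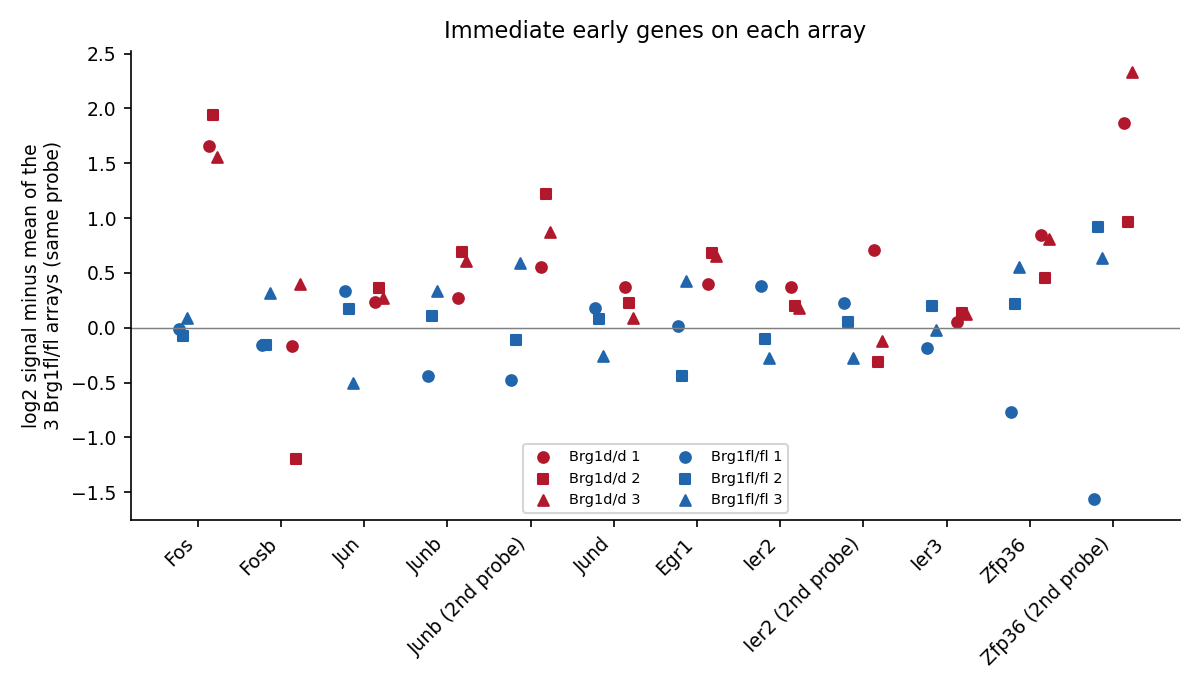
Log2 signal of each tested probe on each array, minus the mean of the 3 Brg1fl/fl arrays for that probe (vertical axis), for the 12 tested probes (horizontal axis). Red symbols are Brg1d/d and blue symbols Brg1fl/fl, and circle, square and triangle stand for replicates 1, 2 and 3. The red and blue symbols are widely parted for Fos and interleave or nearly meet for the other probes.

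Upstream sequences are shown for Fos, the gene that was called, for Fosb and Jun, its closest relative and its main partner, which were not, and for Zfp36, which holds the only CArG box found. RefSeq's promoter table (GRCm38.p6) matched 7 of the 10 genes: Fos, Fosb, Jun, Junb, Jund, Ier3 and Zfp36. The 250 bases before the annotated start are printed 5′ to 3′ on the gene's strand, in lower case, with capitals for the motifs searched. These were the CRE TGACGTCA and its first 5 letters TGACG, the AP-1 site TGANTCA, the Egr site GCGNGGGCG, the CArG box and the TATA box TATAAA, each on both strands. TGACG also lies within TGACGTCA.
Fos, chr12:85473640-85473889, plus strand: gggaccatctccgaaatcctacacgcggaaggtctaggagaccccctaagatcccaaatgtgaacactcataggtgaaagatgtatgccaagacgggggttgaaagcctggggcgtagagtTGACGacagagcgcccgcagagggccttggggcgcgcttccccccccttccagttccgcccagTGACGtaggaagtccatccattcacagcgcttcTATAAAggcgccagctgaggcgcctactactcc
Fosb, chr7:19310046-19310295, minus strand: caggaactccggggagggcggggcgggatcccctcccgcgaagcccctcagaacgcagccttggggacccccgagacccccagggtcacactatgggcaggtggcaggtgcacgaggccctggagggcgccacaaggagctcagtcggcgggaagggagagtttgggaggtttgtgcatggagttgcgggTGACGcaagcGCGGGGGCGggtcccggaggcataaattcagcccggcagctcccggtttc
Jun, chr4:95052223-95052472, minus strand: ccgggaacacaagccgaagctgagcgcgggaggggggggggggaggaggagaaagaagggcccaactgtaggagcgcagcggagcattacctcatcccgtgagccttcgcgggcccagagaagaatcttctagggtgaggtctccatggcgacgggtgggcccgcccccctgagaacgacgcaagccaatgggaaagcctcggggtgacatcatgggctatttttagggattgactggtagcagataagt
Zfp36, chr7:28379229-28379478, minus strand: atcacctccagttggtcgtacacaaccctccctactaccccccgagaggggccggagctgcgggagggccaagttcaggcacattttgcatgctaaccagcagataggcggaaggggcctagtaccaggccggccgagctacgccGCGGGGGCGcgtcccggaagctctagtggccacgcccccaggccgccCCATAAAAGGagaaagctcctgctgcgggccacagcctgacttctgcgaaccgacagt

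The Fos window held TGACG at -129 to -125 and at -66 to -62, counted from the annotated start, and TATAAA at -33 to -28. TGACG stood in 3 of the 7 windows, those of Fos, Fosb and Junb, and in 17.8% of all 32851 promoter windows of the same length. The Egr site stood in the windows of Fosb and Zfp36 and in 4.70% of all windows. The CArG box of Zfp36 lay at -58 to -49, and 1.47% of all windows held one. TATAAA was found in 1 of the 7 windows and in 12.4% of all. None of the 7 windows held TGACGTCA (1.55% of all) or TGANTCA (6.75% of all). A match is a description of letters, and the windows stop at 250 bases.

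Fos was read by 1 probe, annotated to chromosome 12 at 83478431 to 83478490 (mm7), which the array carries at 10 spots. Its level was -3.05, -2.78 and -3.16 in Brg1d/d 1, 2 and 3, and -4.73, -4.78 and -4.63 in Brg1fl/fl 1, 2 and 3. The 3 knockout arrays lay far above the 3 controls, and the spread within each genotype was small (SD 0.20 and 0.08). On the scanner's own scale, before any scaling, the mean signal was 196, 142 and 178 units against 37.9, 36.8 and 38.9 units. The difference of 1.72 had a 95% interval of 1.32 to 2.11 (limma adjusted p = 0.00447), and within the shared scan day it was 1.94. Only 1.94% of all tested genes had a larger rise.

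The 10 replicate spots give a view of the measurement error within an array. After outlier spots were left out, 9, 10 and 9 spots remained on the Brg1d/d arrays and 10 on each control. The lowest of the 28 knockout spots read -3.35 and the highest of the 30 control spots -4.43, so no spot of one genotype reached the range of the other. Spots of 1 array are not replicates of the genotype, and their SD of 0.03 to 0.15 describes the array only. All used Fos spots were well above background on every array.

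**Figure D2:**
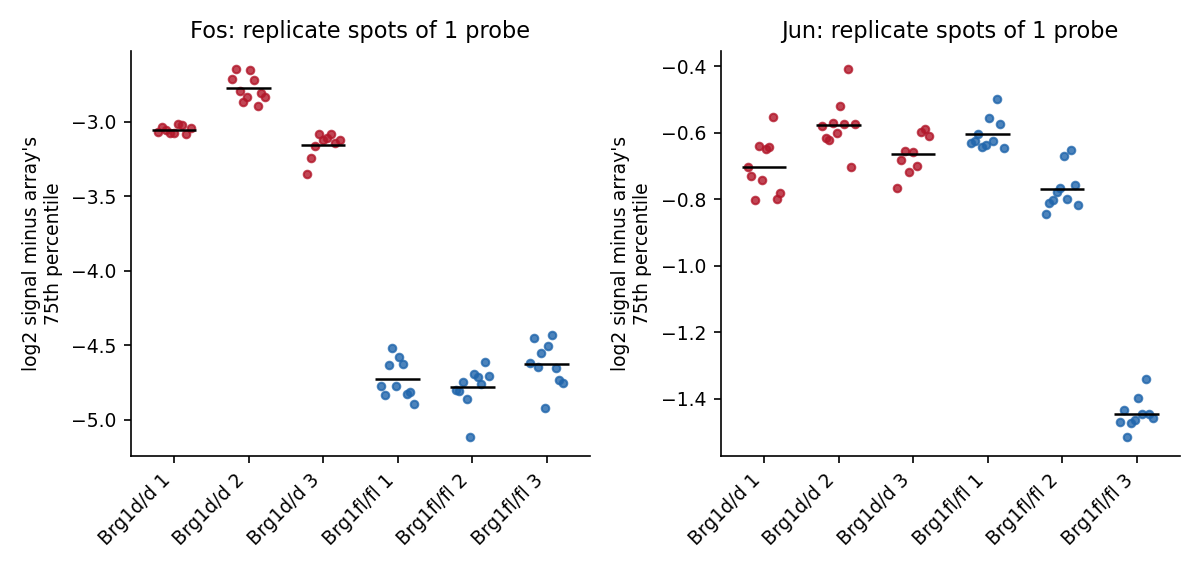
Scaled log2 signal (vertical axis, 0 at the 75th percentile of the array) for each replicate spot of the Fos probe and of the Jun probe on the 6 arrays (horizontal axis), with red for Brg1d/d, blue for Brg1fl/fl and a black line at each array's mean. For Fos every red spot lies above every blue one, from -3.35 upwards against -4.43 downwards, while for Jun only Brg1fl/fl 3 stands apart, at -1.45.

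The call for Fos did not depend on any single array. Its difference was 1.61 to 1.80 with each array left out in turn, with limma adjusted p from 0.00665 to 0.0334, and 1.71 (0.00665) without control 1. It was 1.94 with adjusted p = 0.0335 when the spike-in split was a block, but adjusted p = 0.142 with scan day as a block, where the estimate is the same-day value and limma called 0 genes of the array (1796 at an unadjusted p under 0.05). The size did depend on the background correction: with normexp (a background model that keeps signals positive, used with an offset of 50) it was 0.83, with adjusted p = 0.0162. The Fos probe was dim, at 36.8 to 196 units against a 75th percentile of 958 to 1627 units.

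Fosb, the closest relative of Fos, gave a different picture. Its probe on chromosome 7 (16985502 to 16985561, mm7) read -4.63, -5.66 and -4.06 in Brg1d/d and -4.62, -4.62 and -4.14 in controls. Brg1d/d 2 was the lowest of the 6 arrays and Brg1d/d 3 the highest, so the groups overlapped. The difference was -0.32 (95% interval -1.30 to 0.66, limma adjusted p = 0.607), and the same-day value was -1.20. Without Brg1d/d 2 the difference was 0.12, and without control 3 it was -0.16. This probe too was dim, at 19.2 to 94.7 units.

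The Jun genes encode the partners that Fos proteins need to bind DNA, and none of them was called. Jun, read by 10 spots of a probe on chromosome 4 (94441779 to 94441838, mm7), had levels of -0.70, -0.58 and -0.66 in Brg1d/d and of -0.60, -0.77 and -1.45 in controls. The knockout arrays lay close together (SD 0.065) and 2 of the controls lay among or close to them, while control 3 was the lowest array. Its difference was 0.29 (95% interval -0.29 to 0.87, limma adjusted p = 0.430), with a same-day value of 0.36. It was 0.038 without control 3 and 0.46 without control 1. Jund, which is made in most cells at a steady level, read 3.72, 3.57 and 3.43 against 3.52, 3.42 and 3.09 at chromosome 8 (69154598 to 69154657, mm7). The groups overlapped, and the difference was 0.23 (95% interval -0.20 to 0.66, adjusted p = 0.404), with a same-day value of 0.23, and 0.10 without control 3.

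Junb had 2 probes on chromosome 8, at 83563059 to 83563118 and 83563097 to 83563156 (mm7), which share 22 bases and so are not independent readings. The brighter read 2.62, 3.04 and 2.95 in Brg1d/d against 1.90, 2.46 and 2.68 in controls. Only Brg1d/d 1 lay within the range of the controls, just below control 3. The difference was 0.52 (95% interval -0.07 to 1.11, limma adjusted p = 0.194), with a same-day value of 0.69, and it was 0.30 without control 1. The second probe read 2.39, 3.05 and 2.71 against 1.35, 1.72 and 2.42, a difference of 0.89 (95% interval 0.13 to 1.64, adjusted p = 0.119) with a same-day value of 1.22. Its unadjusted p was 0.0285, and it did not pass over the whole array.

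The Egr genes encode zinc finger factors that bind GC-rich sites. Egr1, which follows the same upstream kinases as Fos, had levels of -1.74, -1.46 and -1.48 in Brg1d/d and of -2.13, -2.58 and -1.71 in controls. Control 3 lay just above Brg1d/d 1 and otherwise the knockout arrays were higher. The difference was 0.58 (95% interval -0.01 to 1.18, limma adjusted p = 0.165), with a same-day value of 0.68, and it was 0.36 without control 2. Over the alternatives tried its adjusted p ran from 0.00828, with array weights, to 0.644, with scan day as a block. Egr3 was near background with both of its probes on chromosome 14: at 64726656 to 64726715 (mm7) it was well above background on Brg1d/d 2 alone, and at 64723504 to 64723563 on no array. Its signals were 1.76 to 20.0 units, and no fold is given.

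Among the response genes, Zfp36, whose protein binds AU-rich messages, had the largest difference after Fos by its brightest probe. That probe, on chromosome 7 at 25310682 to 25310724 (mm7), read -1.48, -1.87 and -1.51 in Brg1d/d against -3.09, -2.11 and -1.76 in controls. Control 1 was the lowest, and control 3 lay above Brg1d/d 2. The difference was 0.70 (95% interval -0.14 to 1.55, limma adjusted p = 0.217), with a same-day value of 0.45, and it was 0.32 without control 1. The second probe, at 25310819 to 25310878, read -5.31, -6.21 and -4.84 against -8.73, -6.25 and -6.53, and was not well above background on control 1. This probe thus met the background filter only through Brg1d/d, the genotype where it is high. The groups did not overlap there, but Brg1d/d 2 stood only just above control 2, and the difference of 1.72 had an adjusted p of 0.152, with a same-day value of 0.96 and a value of 0.94 without control 1. With normexp it was 0.0049.

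Ier2 and Ier3 are small immediate early proteins, Ier2 nuclear and Ier3 linked to survival signalling. The brightest Ier2 probe, on chromosome 8 (83243584 to 83243618, mm7), read 3.05, 2.87 and 2.86 in Brg1d/d against 3.05, 2.57 and 2.40 in controls. Control 1 was the highest of the 6 arrays and the difference was 0.25 (95% interval -0.25 to 0.75, limma adjusted p = 0.426), with a same-day value of 0.20. It was 0.11 without control 3 and 0.44 without control 1. The second probe differed by 0.092 (adjusted p = 0.852), with a same-day value of -0.31. Ier3, on chromosome 17 (33924245 to 33924304, mm7), read -2.59, -2.50 and -2.51 against -2.82, -2.44 and -2.66. All 3 knockout values lay within the range of the controls, and its difference of 0.10 had a 95% interval of -0.28 to 0.49 (adjusted p = 0.684), with a same-day value of 0.13, and it was 0.011 without control 1.

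**Figure D3:**
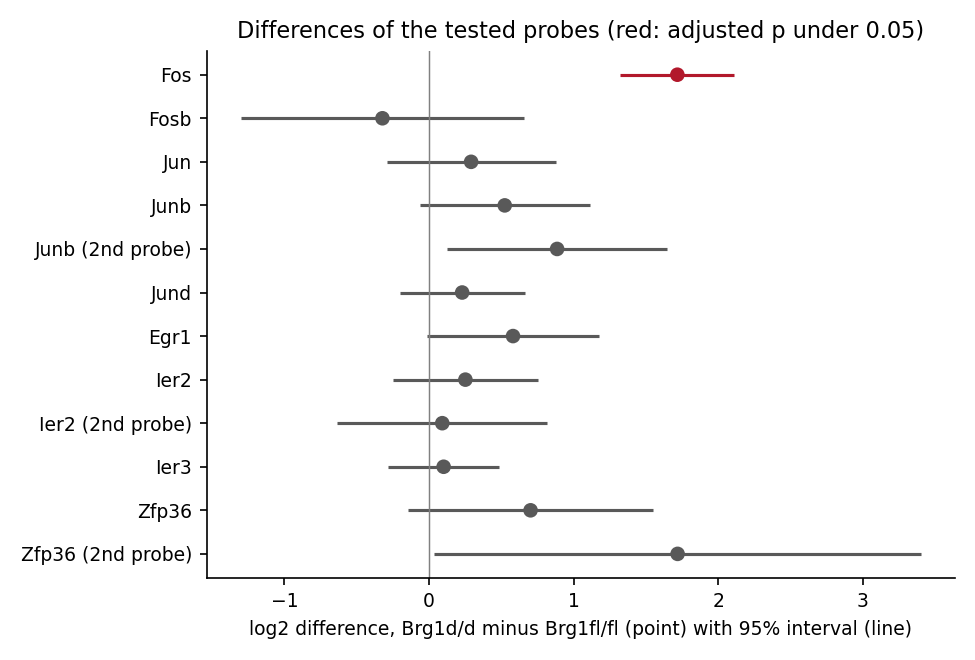
Log2 difference between Brg1d/d and Brg1fl/fl (horizontal axis) with its 95% interval from limma for the 12 tested probes (vertical axis), red where the adjusted p was under 0.05. Fos alone is red, with an interval of 1.32 to 2.11, while the intervals of Junb's and Zfp36's second probes reach down to 0.13 and 0.04. Zfp36's second probe met the background filter only through Brg1d/d, where it is high, and its difference was 0.0049 with normexp.

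Fos was the only brightest probe of the 9 genes whose genotypes did not overlap with the knockout higher, and none was wholly lower; over all tested genes these shares were 22.8% and 19.1%. Across the 6 arrays the genes did not form 1 common pattern. Fos and Egr1 correlated at 0.77 and Fos and Junb at 0.73, and Junb and Zfp36 at 0.85. A second group held Jun, Jund and Ier2, with correlations of 0.81 to 0.87, whereas Jun and Junb stood at -0.07 and Fos and Fosb at -0.41. These are Pearson correlations over 6 arrays that share the genotype split and the scan days, given as a description. The 3 genes with levels most like those of Fos were Esrp1, Por and Dkkl1 (r = 0.995 to 0.997 over 6 arrays, among 14198 genes). Esrp1, a splicing regulator of epithelial cells, differed by 0.74 (adjusted p = 0.0267), Por, the cytochrome P450 reductase, by 0.37 (0.122), and Dkkl1 by 2.64 (0.00298). Among those most like Egr1 were Haus2 (r = 0.9805) and Dnpep (r = 0.9763), with differences of 0.39 and 0.32, neither of them called.

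The other genes of the pathway were read through 8 lists of 124 genes, of which 114 were tested, 9 rose and 6 fell. That is 13.2% called, against 10.6% of all tested genes, with 7.89% higher and 5.26% lower against 5.26% and 5.32%. The median over the lists was 0.08.

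Among 17 tested immediate early transcription factors outside the set 2 rose, 1 fell and 14 were not called, with a median of 0.15. Egr4, a relative of Egr1 and Egr3, had the largest rise of them. It read -1.95, -1.79 and -1.71 in Brg1d/d and -4.17, -4.16 and -4.24 in controls. The 2 groups were far apart, with an SD of 0.12 and 0.04, and the difference was 2.37 ± 0.15 (SE, n = 3 and 3), which is 5.18-fold (limma adjusted p = 0.00138, same-day value 2.40). Fosl1, which encodes the Fos relative Fra-1, read -3.92, -4.76 and -4.48 against -6.84, -6.27 and -5.69. All knockout arrays were higher and the difference was 1.88 (adjusted p = 0.0276), or 0.48 with normexp (adjusted p = 0.0612). The probe met the background filter only through Brg1d/d, the genotype where it is high, since 2 of 3 controls were well above background. Control 1 was the one that was not, and without it the difference was 1.59. The call was lost without Brg1d/d 1, without Brg1d/d 3 or without control 2. Fosl1 is counted among the genes that rose, but a call that passed the filter in this way gives no support for a rise. Arc, an immediate early gene of neurons that encodes no transcription factor although it stood in this list, fell by 0.84 (adjusted p = 0.0480), and missed the threshold with each of the 6 arrays left out. Egr2, Nr4a1, Atf3 and Myc, named here after their values were seen, differed by 0.33, 0.53, 0.015 and -0.47 and were not called.

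Of 21 other immediate early products 4 rose and none fell, with a median of 0.23. Gadd45b, a stress sensor that activates a p38 and JNK kinase kinase, rose by 1.36 (limma adjusted p = 0.0173), and its second probe rose by 1.69 (0.00749). Plk3, a polo-like kinase of the stress response, rose by 1.34 (0.0138) and Zfp36l2, a relative of Zfp36, by 0.98 (0.0253). The fourth was Ccn1, a matrix protein also called Cyr61, at 0.65 (0.0442), which is named because the count is small. For each of these 4 genes the knockout arrays were all above the controls, which held for 22.8% of all tested genes. They were named because they were called higher, so this adds no support.

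Upstream of Fos, none of 21 ERK, JNK and p38 pathway kinases was called, with a median of 0.03. These are RNA levels, and the activity of the kinases was not measured. Rps6ka5, also called Msk1, which phosphorylates histone H3 and CREB at immediate early genes, had the smallest p of them, at -0.66 (limma adjusted p = 0.0507). Of 8 SRF, TCF and CREB factors only Elk3 was called, with a fall of 0.85 (adjusted p = 0.0407), and its other probe differed by -0.58 (0.0941). Srf and Creb1, named after their values were seen, differed by 0.31 (adjusted p = 0.271) and -1.28 (0.0860, same-day value -0.45). The difference of Creb1 was the largest of the 8, and it was not called. Elk1 and Elk4 did not meet the background filter.

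Among 14 partners and corepressors of AP-1 and Egr proteins 1 fell, Batf, whose protein pairs with Jun proteins. It read -4.07, -4.47 and -3.87 in Brg1d/d against -1.91, -2.58 and -2.32 in controls. The groups lay well apart, with a fall of 1.87 on the log2 scale (limma adjusted p = 0.0107). Of 10 MAP kinase phosphatases 1 rose and 1 fell. Dusp16, which inactivates JNK and p38, rose by 5.03 with its brightest probe (adjusted p = 0.000214), while its other probes rose by 1.33 (0.0115) and differed by 0.48 (0.458, not called), so the size depends on the probe. Dusp2 fell by 0.84 (0.0321), and Dusp1, the immediate early phosphatase, named after its value was seen, differed by 0.28 (0.293).

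Of 10 tested AP-1 target genes 2 rose and 1 fell, with a median of -0.18. Hmox1, the heme oxygenase of the oxidative stress response, rose by 1.32 (limma adjusted p = 0.0333) and Plaur, the urokinase receptor, by 0.86 (0.0418), whereas the adhesion receptor gene Cd44 fell by 1.12 (0.0478), with a same-day value of -0.70. Mmp3, Mmp10, Mmp13, Il6 and Lif did not meet the background filter or had no probe named for them. Of 13 heat shock genes 1 fell, Hspb8 by 1.71 (0.0236), and the median was 0.06. The summed signal of the heat shock list was 847, 646 and 805 times the 75th percentile in Brg1d/d 1, 2 and 3, and 630 to 659 times in controls. Brg1d/d 2, which shared the scan day of the controls, thus lay within their range, and the part of the scan day was not tested.

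**Figure D4:**
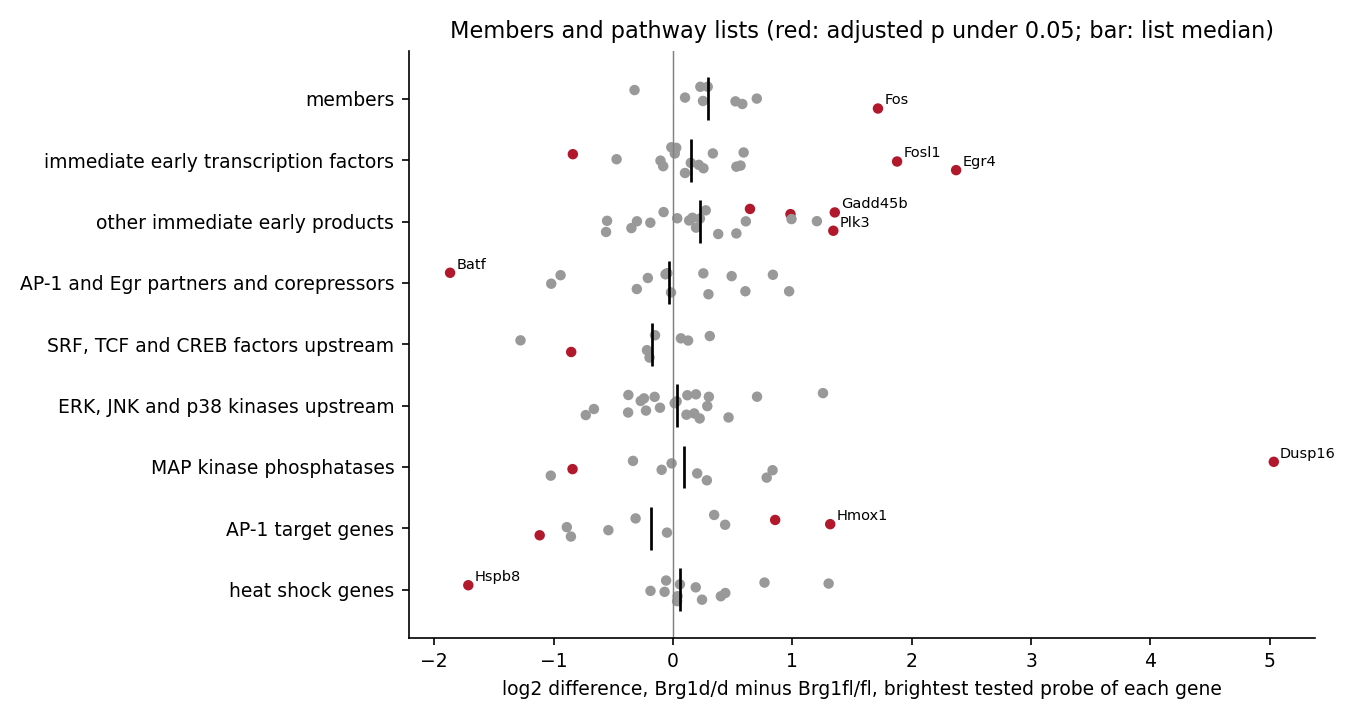
Log2 difference between Brg1d/d and Brg1fl/fl for the brightest tested probe of each gene (horizontal axis), for the 10-gene set (9 tested) and the 8 pathway lists (rows), red where the limma adjusted p was under 0.05, with a black bar at each list's median. Most points lie around 0. Dusp16 at 5.03, Egr4 at 2.37, Fosl1 at 1.88, Fos at 1.72, Batf at -1.87 and Hspb8 at -1.71 lie furthest out. Fosl1 met the background filter only through Brg1d/d, where it is high.

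Of the 14 called pathway genes named by the rule, Egr4 and Dusp16 still passed with any one array left out. The others missed the threshold without at least 1: of the 14, 11 missed it without Brg1d/d 1, 11 without Brg1d/d 3, 10 without control 2, 7 without control 3, and 2 each without Brg1d/d 2 and without control 1. Adjusted p where they missed ran from 0.0501 to 0.168. Batf missed only without Brg1d/d 1 (-1.90, adjusted p = 0.0555), and Fosl1 missed without Brg1d/d 1 (0.100), Brg1d/d 3 (0.0979) and control 2 (0.110). With the spike-in split as a block, 2 genes of the lists passed, Egr4 (adjusted p = 0.0230) and Dusp16 (0.00993). With scan day as a block none did, Egr4 having an adjusted p of 0.109 and Dusp16 of 0.0819. Under either block the estimate compares Brg1d/d 2 alone with the controls.

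**Figure D5:**
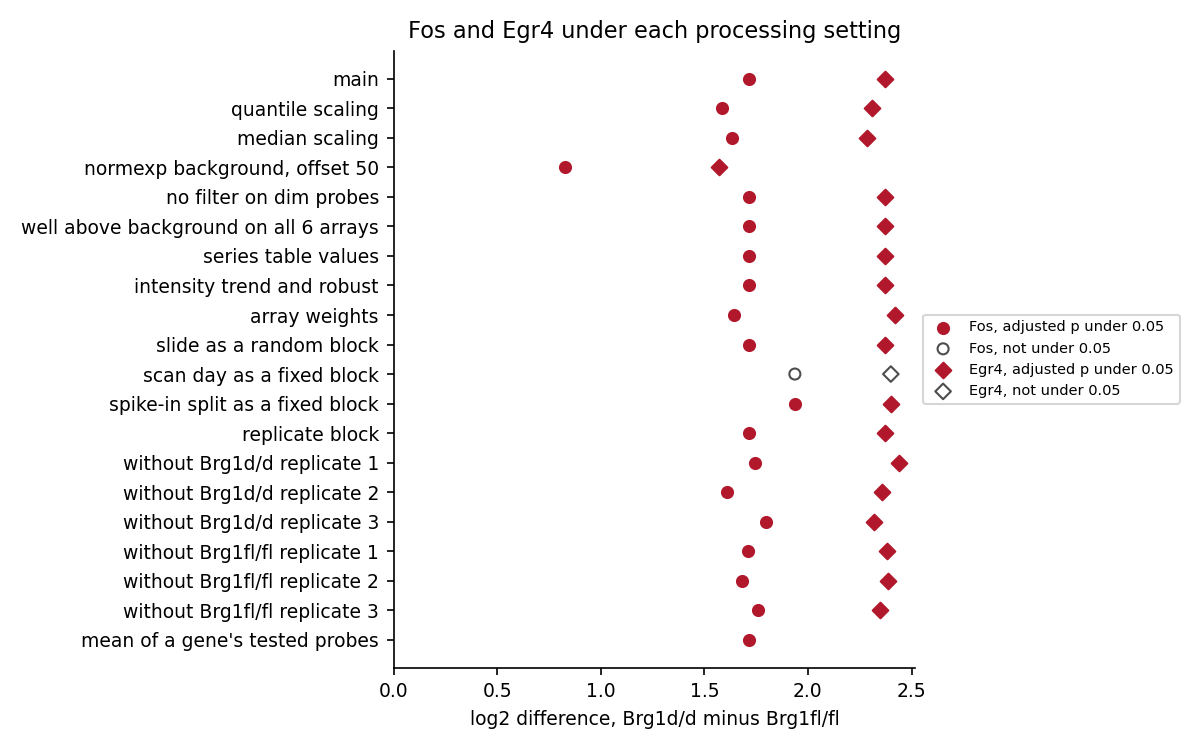
Log2 difference of Fos (circles) and Egr4 (diamonds) between Brg1d/d and Brg1fl/fl (horizontal axis) under each processing setting (rows), filled red where the adjusted p was under 0.05 and open where it was not. Fos lies above 0 in every row and Egr4 in every row that shows it. The mean over a gene's probes is not plotted for Egr4. Both genes are lowest with normexp, at 0.83 and 1.57, and both are open only with scan day as a block.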

How the data were processed

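Per the file headers, the deposited scanner files hold intensity values that the authors made with Agilent Feature Extraction 9.5 (per the submitters' processing notes), with background subtracted, trends across the array removed and no scaling between arrays. Their flags of 0 or 1 (unit: other) mark outliers, saturation and signal well above background, per the file headers. The deposited series table holds the same intensity values (100% equal within a relative tolerance of 0.0001). Control and outlier spots were left out, log2 processed signal was centred on each array's 75th percentile over non-control spots, and replicate spots were averaged. Each array carried 43379 non-control spots, 68.5% to 73.5% of them well above background. Probes with a value on all 6 arrays, flagged well above background in each replicate of 1 genotype or both, were fitted with limma 3.58.1 (two-sided, Benjamini-Hochberg) in R 4.3.3, and the fit was tested on simulated data. Genes were named through RefSeq (GRCm38). For the lists, the up to 3 largest called differences per direction are named, else the smallest p. For Fos and Egr1, the 3 genes with the highest Pearson r over the 6 arrays are named, except 1 gene for Egr1 that is not reported here. The genes, lists and rules were chosen with earlier results of these data known. With 3 arrays per genotype, the number of arrays limits the precision. Figures were drawn with matplotlib 3.10.9. Alternatives covered scaling, background, filters, series table, eBayes options, blocks, probe choice, thresholds and each array left out.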

Additional observations from a re-analysis of the deposited data

How the results depend on the processing

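A block for the day of scanning left 0 genes of the array called by limma (1796 at an unadjusted p under 0.05), 0 of the set and 0 of the pathway lists, against 1589, 1 and 15. That block and the spike-in split each compare Brg1d/d 2 alone with the controls. The count over all genes was 122 with the spike-in split as a block, 694 with no filter on dim probes, 263 at an adjusted p under 0.01 and 8397 with array weights, whose estimation gave a convergence warning and which called 5 of the set and 55 of the lists. The lists had 2 calls with the spike-in split, 5 with no filter, 2 at 0.01 and 9 at 2-fold. Replicate numbers did not pair the samples (correlations of deviations -0.13, 0.08 and 0.09 for the 3 pairs). With the replicate block 572 genes and 3 list genes were called, and Fos stayed called (adjusted p = 0.0367). With each array left out in turn the counts ran from 309 to 2542 genes, from 3 to 21 list genes and 1 of the set throughout, and the set's median from 0.11 to 0.36. Scaling moved the median of all genes from 0.07 to -0.01 at most. Signs turned only for differences near 0 or resting on 1 array: the second Ier2 probe (-0.017 with normexp, -0.032 with array weights, -0.31 with scan day or the spike-in split as a block, -0.22 without Brg1d/d 1, -0.048 without control 3, and -0.22 to 0.29 over all arrays left out), Fosb (0.28 with array weights, 0.12 without Brg1d/d 2, and -0.68 to 0.12 over all arrays left out) and Ier3 (-0.037 with array weights). The cause was not tested. Dim probes such as those of Fos, Fosb and Egr3 limit what can be measured.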
